A study of Homo sapiens with 4 samples.

Results

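The genes described here are the mitochondrial stress relay, the 4 eIF2alpha kinases and the secreted mitokines, measured in U2OS cells, an established human osteosarcoma line. They were taken by symbol from the table of all libraries. The 10 members, among 39519 named genes, are OMA1, DELE1, EIF2AK1, EIF2AK2, EIF2AK3, EIF2AK4, HSPD1, LONP1, FGF21 and GDF15. Ribosomal RNA was depleted from total RNA, and 2 groups of 2 libraries each were sequenced. Cells of the sh-PURB group carried an inducible short hairpin RNA against PURB, the gene of a protein that binds single-stranded DNA and RNA, and received doxycycline at 5 µg/ml for 72 h. Cells of the sh-NC control group received DMSO. The values are TPM, the share of a library's transcripts after scaling by length, so levels of different genes can be set side by side, and the read depth behind them is unknown.

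Doxycycline is a tetracycline antibiotic known to inhibit translation on bacterial ribosomes and on the ribosomes of mitochondria. Only the sh-PURB libraries had it, so the agent and the loss of PURB cannot be told apart in any difference below. Whether 1 hairpin or several were used, and whether the libraries stem from separate cultures, is not in the labels. All p-values thus refer to the spread among 4 libraries, and that spread may be technical.

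OMA1 is a protease of the mitochondrial inner membrane that becomes active when mitochondria are stressed. It cleaves DELE1, whose fragment binds and activates the kinase HRI (gene EIF2AK1) in the cytosol. HRI, PKR (EIF2AK2), PERK (EIF2AK3) and GCN2 (EIF2AK4) phosphorylate the translation factor eIF2alpha in response to different signals, which lowers protein synthesis in general and favours translation of the transcription factor ATF4. HSPD1 is the mitochondrial chaperonin HSP60, LONP1 is a protease of the mitochondrial matrix, and FGF21 and GDF15 are hormones that cells release under mitochondrial and other stress. Much of this relay works by cleavage and phosphorylation, which mRNA levels do not measure.

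The promoters of 3 members are shown because FGF21 and GDF15 had the 2 largest differences between the groups and HSPD1 had the other motif match found. Each runs from 250 bases before to 50 bases after a RefSeq gene start (GRCh38.p14), 5′ to 3′ on the strand of the gene. Capitals mark motif matches. FGF21 lies at chr19:48755274-48755573 on the plus strand, GDF15 at chr19:18385908-18386207 on the plus strand and HSPD1 at chr2:197499791-197500090 on the minus strand.
FGF21: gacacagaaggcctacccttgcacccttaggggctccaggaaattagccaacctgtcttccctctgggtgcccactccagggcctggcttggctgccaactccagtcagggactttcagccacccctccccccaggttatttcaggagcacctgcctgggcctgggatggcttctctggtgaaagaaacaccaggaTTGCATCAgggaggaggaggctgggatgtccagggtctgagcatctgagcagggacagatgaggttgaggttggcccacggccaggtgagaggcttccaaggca
GDF15: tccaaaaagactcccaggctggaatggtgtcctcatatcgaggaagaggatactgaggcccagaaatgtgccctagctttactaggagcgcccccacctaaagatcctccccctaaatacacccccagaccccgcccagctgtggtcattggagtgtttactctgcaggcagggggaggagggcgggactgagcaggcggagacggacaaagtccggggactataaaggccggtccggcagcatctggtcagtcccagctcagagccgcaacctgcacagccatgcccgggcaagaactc
HSPD1: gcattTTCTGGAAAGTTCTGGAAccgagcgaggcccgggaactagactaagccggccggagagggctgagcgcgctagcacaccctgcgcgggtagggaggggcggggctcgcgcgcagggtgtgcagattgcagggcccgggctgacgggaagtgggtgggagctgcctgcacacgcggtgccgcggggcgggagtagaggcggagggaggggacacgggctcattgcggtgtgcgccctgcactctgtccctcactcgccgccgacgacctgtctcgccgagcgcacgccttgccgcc

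Motifs were searched on both strands with N for any base. The core of the ATF4 composite element, TGATGNAA, matched in FGF21 alone among the members with a promoter in the table, as TTGCATCA on the opposite strand, 54 to 47 bases before the start. This motif occurred in 3.62% of 35116 promoters of the same length. The heat shock element, here the units GAA, TTC and GAA with 2 bases between them, matched HSPD1 at 2 overlapping places, one on each strand, and occurred in 0.490% of promoters. Neither the full cyclic AMP response element TGACGTCA (1.85% of promoters) nor the ER stress response element, CCAAT and CCACG with 9 bases between them (0.0769%), matched a member. HSPD1 and LONP1 had 2 starts each in the table, and no promoter of EIF2AK1 was matched. A match describes these letters and is not a measured binding site.

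PURB mRNA, the hairpin's target, stood at 5.29 and 6.55 TPM in the control libraries and at 2.46 and 2.69 TPM in the knockdown libraries. The groups did not overlap, and sh-PURB was at 0.435 of the control mean. Over all genes PURB did not pass the limma test (adjusted p = 0.102), and its exact permutation p (two-sided) was 0.333, which 4 libraries in 2 groups cannot go below. As for the cell type, 8 of 10 mesenchymal and osteosarcoma markers reached 1 TPM in a library and summed to 608 to 696 TPM, with TWIST1 at 0 throughout and COL1A2 under 1 TPM. Of 10 epithelial markers 6 reached 1 TPM, with sums of 194 to 223 TPM. The 10 immune markers summed to 3.91 to 9.40 TPM, the 8 endothelial ones to 1.84 to 3.16 TPM (CLDN5 at 0) and the 8 neural ones to 28.1 to 39.6 TPM (NEFM and INA at 0). The part of these other markers in the results was not tested. In bulk RNA, fewer cells making a transcript and less of it per cell cannot be told apart.

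All 10 members were above the filter on low values, 1 TPM or more in 2 or more libraries, which 14269 genes passed. FGF21 passed only through its sh-PURB libraries. Differences are sh-PURB minus sh-NC on the log2(TPM + 1) scale, fitted in limma over all 14269 genes with p-values adjusted over all of them at a threshold of 0.05. With limma, 0 of the 10 members passed, and 2, FGF21 and GDF15, had an unadjusted p under 0.05. Of all tested genes 0.287% passed the adjusted threshold (0.0841% higher, 0.203% lower) and 15.3% the unadjusted one (5.77% higher, 9.53% lower). In 7 of the 10 members the groups did not overlap, 6 with both sh-PURB libraries above both controls and 1, OMA1, below. The share over all tested genes was 47.9%, with 18.6% above and 29.3% below. These shares moved with the rescalings described below. Median-ratio rescaling gave 25.6% above and 21.6% below, recomputed TPM 31.6% and 18.2%, and protein-coding genes alone 23.2% and 26.1%. Of the members 7 lay above on each of these tables, and 0, 0 and 1 below. The excess of members above thus stood against a larger share of all genes there. The members were also chosen with earlier results of these data known, so such an excess may come from that choice. On the deposited values the median difference of the members was 0.20, against -0.057 for all tested genes.

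**Figure D1:**
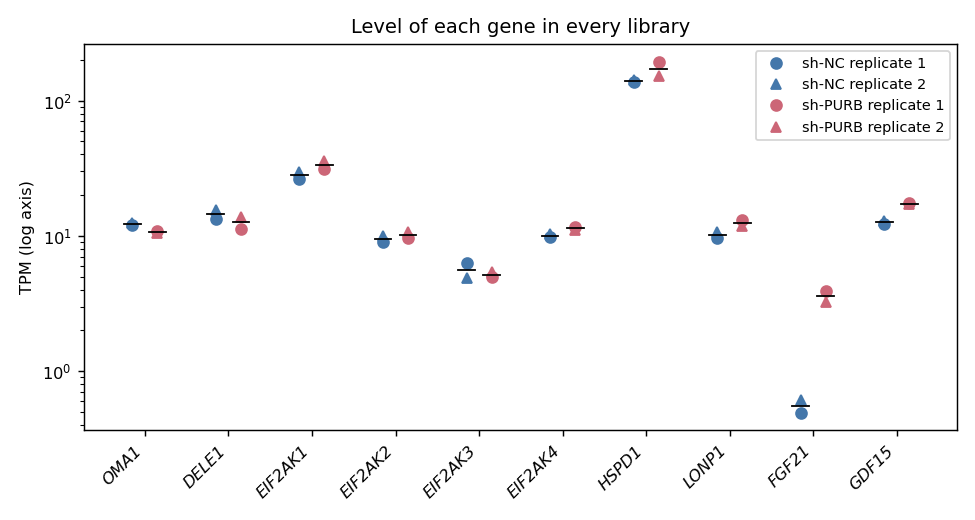
TPM of each of the 10 genes in every library on a log axis, with sh-NC in blue, sh-PURB in red, replicate 1 as circles, replicate 2 as triangles and the group mean as a line. FGF21 stands apart, at 0.492 and 0.612 TPM under sh-NC and 3.93 and 3.23 TPM under sh-PURB, while the largest ratio of group means among the other genes is 1.37, for GDF15.

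Over all libraries the levels of the members ran from 0.492 to 194 TPM. In sh-NC, HSPD1 was at a mean of 140.0 TPM, EIF2AK1 at 28.2, DELE1 at 14.5, GDF15 at 12.6, OMA1 at 12.2, LONP1 at 10.2, EIF2AK4 at 10.1, EIF2AK2 at 9.49, EIF2AK3 at 5.57 and FGF21 at 0.552 TPM. Within that order GDF15 and OMA1 overlapped between libraries, as did LONP1 with EIF2AK4 and EIF2AK4 with EIF2AK2, while every other neighbouring pair was separate. In sh-PURB the order was HSPD1, EIF2AK1, GDF15, DELE1, LONP1, EIF2AK4, OMA1, EIF2AK2, EIF2AK3 and FGF21. There the neighbouring pairs DELE1 and LONP1, and OMA1 and EIF2AK2, overlapped. Pairs further apart in either order can overlap too, as DELE1 and EIF2AK4 did under sh-PURB. GDF15 stood below DELE1 in the controls and above it under sh-PURB, and OMA1 went from above LONP1 and EIF2AK4 to below both.

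The first step of the relay is the protease OMA1 (chromosome 1, 58415384 to 58546802, minus strand; GRCh38, GENCODE release 29, as for all gene positions here). OMA1 was at 11.99 and 12.5 TPM in the control libraries and at 10.9 and 10.5 TPM in the knockdown libraries. Both sh-PURB values lay below both controls, at 0.872 of the control mean. The difference was -0.18 with a standard error of 0.12 (limma adjusted p = 0.547). OMA1 stayed below 0 under each of the 3 rescalings tried, but its groups then overlapped in 2 of them, with median-ratio rescaling and with TPM recomputed without the most abundant and the mitochondrial genes. That recomputation moved the median difference of the genes by 0.13. Over the 13 alternatives its difference ran from -0.21 to -0.042. Relative to the median of all genes, OMA1 lay between -0.11 and -0.13 on the deposited and the 3 rescaled tables.

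DELE1, the messenger that OMA1 cleaves (chromosome 5, 141923808 to 141942047, plus strand), was at 13.4 and 15.5 TPM under sh-NC and 11.3 and 13.9 TPM under sh-PURB. The groups overlapped, since the higher sh-PURB library lay above the lower control, and the difference was -0.19 with a standard error of 0.16 (limma adjusted p = 0.634). Leaving out sh-PURB replicate 2 gave -0.33, and leaving out sh-PURB replicate 1 gave -0.052. DELE1 and OMA1 mRNAs were thus at like levels, with 1.12 and 1.24 DELE1 per OMA1 under sh-NC and 1.03 and 1.32 under sh-PURB.

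HRI, the kinase at the end of the relay, is encoded by EIF2AK1 (chromosome 7, 6022244 to 6059230, minus strand). EIF2AK1 was at 26.5 and 29.8 TPM under sh-NC and at 31.2 and 35.6 TPM under sh-PURB. Each sh-PURB library was above each control, at 1.19 times the control mean, and the difference of 0.24 with a standard error of 0.13 did not pass (limma adjusted p = 0.452). The difference was 0.14 when sh-PURB replicate 2 was left out and reached 0.39 with recomputed TPM. Set against DELE1, the ratio of EIF2AK1 to DELE1 TPM was 1.98 and 1.92 under sh-NC and 2.77 and 2.56 under sh-PURB, a ratio chosen after its values were seen and not tested. EIF2AK1 shares 532 exonic bases with AIMP2 on the opposite strand, a scaffold protein of the aminoacyl-tRNA synthetase complex. AIMP2 stood at 38.0 and 36.1 TPM under sh-NC and 56.2 and 46.7 TPM under sh-PURB. No source used here states strand-specific counting, so reads in the shared bases cannot be told apart.

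EIF2AK2, which encodes the double-stranded RNA sensor PKR (chromosome 2, 37099210 to 37157065, minus strand), was at 8.94 and 10.0 TPM under sh-NC and 9.61 and 10.7 TPM under sh-PURB, with overlapping groups. That overlap held on the deposited values only. On each of the 3 rescaled tables both sh-PURB libraries of EIF2AK2 lay above both controls. EIF2AK3, which encodes PERK of the endoplasmic reticulum (chromosome 2, 88556741 to 88627576, minus strand), was at 6.26 and 4.89 TPM under sh-NC and at 4.94 and 5.39 TPM under sh-PURB. There both sh-PURB values lay within the range of the controls. EIF2AK4, which encodes the amino acid sensor GCN2 (chromosome 15, 39934146 to 40035591, plus strand), was at 9.76 and 10.3 TPM under sh-NC and 11.7 and 11.0 TPM under sh-PURB, so sh-PURB lay above in both libraries, at 1.13 times control. The limma differences were 0.092 for EIF2AK2, -0.085 for EIF2AK3 and 0.16 for EIF2AK4, with standard errors of 0.14, 0.17 and 0.13 and adjusted p-values of 0.810, 0.861 and 0.620. Over the 13 alternatives EIF2AK2 ran from 0.016 to 0.25 and EIF2AK4 from 0.11 to 0.32. The sign for EIF2AK3 was positive with median-ratio rescaling (0.0063), with recomputed TPM (0.049) and without sh-NC replicate 1 (0.066).

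EIF2AK1 made up more than the other 3 kinases together in every library. Its share of the summed kinase TPM was 51.5% and 54.1% under sh-NC and 54.3% and 56.8% under sh-PURB, groups that just missed each other. EIF2AK3 held 12.2% and 8.87% under sh-NC and 8.61% and 8.60% under sh-PURB. EIF2AK2 held 17.4% and 18.2% against 16.7% and 17.2%, and EIF2AK4 held 19.0% and 18.8% against 20.4% and 17.5%. Exact two-sided permutation tests of the 4 shares gave p = 0.333 for EIF2AK1, EIF2AK2 and EIF2AK3 and p = 1.00 for EIF2AK4 (0.444 and 1.00 after Benjamini-Hochberg adjustment over the 4), and 2 libraries against 2 cannot go below 0.333. The 4 kinases summed to 51.5 and 55.1 TPM under sh-NC and to 57.4 and 62.6 TPM under sh-PURB, without overlap.

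**Figure D2:**
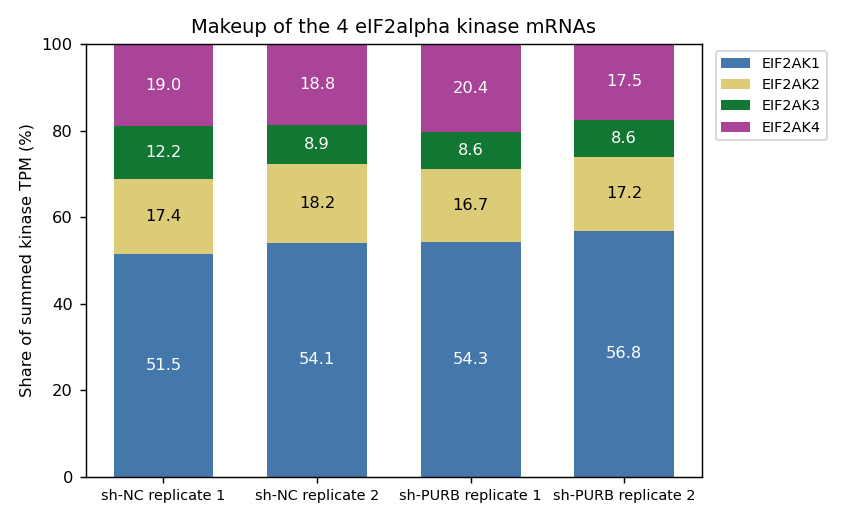
Share of each eIF2alpha kinase gene in the summed TPM of the 4 kinases, in percent, with 1 bar for each library. EIF2AK1 (blue) takes 51.5% to 56.8% of every bar, and EIF2AK3 (green) is the smallest part of each.

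The mitochondrial chaperonin gene HSPD1 (chromosome 2, 197486581 to 197516737, minus strand) was the most abundant member. HSPD1 stood at 138 and 142 TPM under sh-NC and at 194 and 151 TPM under sh-PURB. Both sh-PURB libraries were above the controls, but replicate 1 far more than replicate 2, and the difference was 0.29 with a standard error of 0.14 (limma adjusted p = 0.418). Leaving out replicate 2 of sh-PURB gave 0.47, and leaving out replicate 1 gave 0.10. HSPE1, the co-chaperonin HSP10 encoded head to head with HSPD1 and sharing 281 exonic bases with it on the opposite strand, was at 83.4 and 84.7 TPM under sh-NC and at 114 and 77.4 TPM under sh-PURB, where the lower value lay under both controls. HSPE1 is named after its values were seen. The 18 HSPD1 pseudogenes in the table summed to at most 0.978% of the HSPD1 value in a library.

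LONP1 (chromosome 19, 5691834 to 5720572, minus strand), the matrix protease, was at 9.59 and 10.7 TPM under sh-NC and 13.0 and 11.8 TPM under sh-PURB. Its groups did not overlap either, with sh-PURB at 1.22 times control, and the difference of 0.27 with a standard error of 0.14 did not pass (limma adjusted p = 0.425). Over the alternatives it ran from 0.19 to 0.43. HSPD1 mRNA was 14.4 and 13.3 times that of LONP1 under sh-NC and 14.9 and 12.8 times under sh-PURB, so the ratio of these 2 genes overlapped between the groups. LONP1 shares 43 exonic bases with the ribosomal protein gene RPL36 on the opposite strand, which stood between 402 and 442 TPM in all libraries.

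FGF21, a hormone best known from liver (chromosome 19, 48755559 to 48758333, plus strand), had the largest difference among the members. FGF21 was at 0.492 and 0.612 TPM under sh-NC and at 3.93 and 3.23 TPM under sh-PURB. Both sh-PURB libraries stood well above both controls, with means of 0.552 ± 0.0850 and 3.58 ± 0.50 TPM (SD, n = 2 each). The ratio of these means was 6.49. On the log2(TPM + 1) scale, where the added 1 TPM exceeds both control values and shrinks the difference, sh-PURB was 1.56 higher (standard error 0.20). That difference ranked 120 from the top among 14269 tested genes. It missed the threshold (limma adjusted p = 0.0670). FGF21 passed when TPM was recomputed without the most abundant and the mitochondrial genes (0.0447) and when protein-coding genes alone were rescaled to a common sum (0.00595). Over all 12 alternatives that kept FGF21 its adjusted limma p ran from 0.00595 to 0.293. Those 2 tables multiply the values by 2.64 to 3.08 and 3.80 to 4.04, and 1.03% and 2.93% of their tested genes passed. A pseudocount of 0.1 on the deposited values gave a difference of 2.50 and an adjusted limma p of 0.0831, and one of 0.5 an adjusted p of 0.0701. The filter at TPM 5 left FGF21 out.

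GDF15, a distant member of the TGF-beta superfamily (chromosome 19, 18374731 to 18389176, plus strand), was at 12.3 and 12.9 TPM under sh-NC and at 17.4 and 17.1 TPM under sh-PURB. The libraries within each group lay close together and the groups were separate, at 12.6 ± 0.430 and 17.2 ± 0.200 TPM (SD, n = 2 each), a ratio of 1.37. Its difference was 0.42 (standard error 0.12), short of the threshold (limma adjusted p = 0.201), and it ran from 0.39 to 0.59 over the 13 alternatives with adjusted p-values of 0.119 to 0.572. GDF15 mRNA was 25.0 and 21.1 times that of FGF21 under sh-NC and 4.42 and 5.30 times under sh-PURB. Of the members, FGF21 and GDF15 alone lay above the 90th percentile of the differences of all tested genes, which was 0.35.

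**Figure D3:**
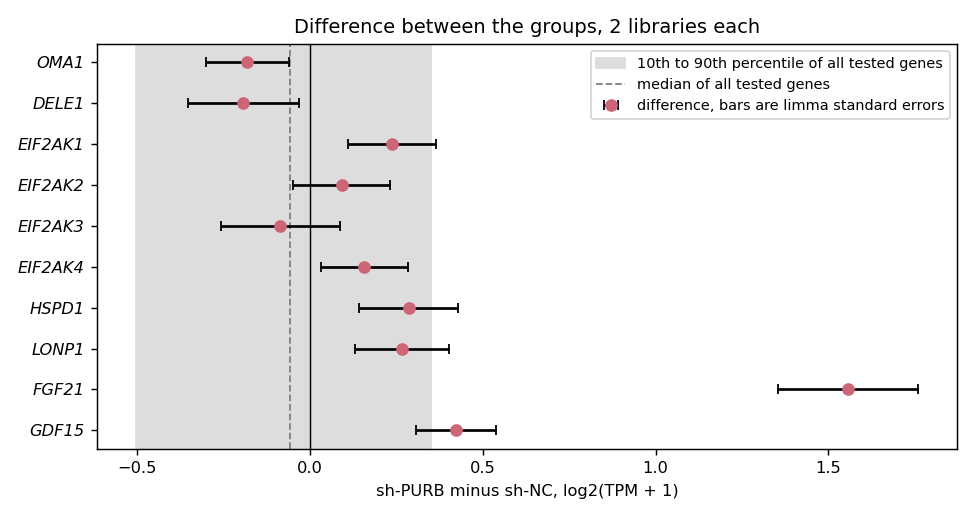
Difference between sh-PURB and sh-NC on the log2(TPM + 1) scale for each gene, with bars of 1 limma standard error, over a grey band from the 10th to the 90th percentile of all 14269 tested genes and a dashed line at their median of -0.057. FGF21 at 1.56 and GDF15 at 0.42 lie to the right of the band and the other 8 genes within it.

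FGF21 was then set beside the genes whose 4 values ran most like its own, by the root mean square distance of centred log2(TPM + 1) values over the 4 libraries among the 14269 tested genes. The nearest was ASNS, asparagine synthetase, at a distance of 0.033, with 19.2 and 21.4 TPM under sh-NC and 70.1 and 59.1 TPM under sh-PURB. Next came the U6 pseudogenes RNU6-268P and RNU6-154P at 0.073 and 0.076. Both were listed at 0 in both controls and so passed the filter only through sh-PURB. With 4 libraries such a likeness describes the size of a difference more than a pattern, and only on the log2(TPM + 1) scale. The ratio of group means was 6.49 for FGF21 and 3.18 for ASNS, as the added 1 TPM shrinks differences most at low values.

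Genes around each step were given by lists. These lists were chosen with earlier results of these data known, so an excess over the share of all tested genes may come from that choice. Counts of list genes without overlap are for the deposited values only. The shares of all tested genes set beside them moved with the scaling, as given above. The lists are described by counts and medians beside those of all tested genes, where 0.287% passed the adjusted limma threshold, 5.77% were above and 9.53% below 0 at an unadjusted p under 0.05, and the median difference was -0.057. Among the partners and substrates of OMA1, 10 of 11 were tested, 0 passed with limma, 1 was above and 1 below 0 at an unadjusted limma p under 0.05, and the median difference was 0.17. OPA1, the fusion GTPase that OMA1 cleaves under stress, was at 28.9 and 32.2 TPM under sh-NC and 46.8 and 40.9 TPM under sh-PURB (limma adjusted p = 0.169). SPG7, a subunit of the inner membrane m-AAA protease, was at 33.7 and 32.1 TPM under sh-NC and only 13.6 and 21.9 TPM under sh-PURB (adjusted p = 0.186 in limma). OPA1 lay above its controls and SPG7 below, without overlap in either. Of the 10 tested genes 7 lay above and 1 below without overlap, where 18.6% and 29.3% of all tested genes did. The prohibitin PHB had 1.36 times and the scaffold STOML2 1.20 times the control mean.

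On the deposited values all 14 tested mitochondrial chaperone and protease genes other than HSPD1 and LONP1 lay above 0, where 41.6% of all tested genes did. Their median difference was 0.16. Some lay near 0, such as HSCB at 0.033 (standard error 0.15), named after its values were seen. With median-ratio rescaling the median was 0.27 for the list and 0.034 for all tested genes, and with recomputed TPM 0.32 and 0.077. In 6 of them both sh-PURB libraries lay above both controls, as in 18.6% of all tested genes. In the other 8 the groups overlapped. With limma 0 of them passed and 3 were higher at an unadjusted p under 0.05. TIMM44, which tethers the import motor to the inner membrane, was at 10.8 and 9.46 TPM under sh-NC and 17.6 and 14.4 TPM under sh-PURB, a ratio of 1.58. HSPA9, the matrix HSP70, was at 43.6 and 43.3 TPM under sh-NC and 66.6 and 51.0 TPM under sh-PURB. GRPEL2, a nucleotide exchange factor of that HSP70, stood at 1.35 times control and TRAP1, the mitochondrial HSP90, at 1.21 times. In HSPA9, as in HSPD1, sh-PURB replicate 1 held the higher value.

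The substrate of the kinases and its partners formed the next list, of which all 15 genes were tested and 0 passed with limma (at an unadjusted p under 0.05, 3 above and 1 below 0, median difference 0.17). EIF2S1, which encodes eIF2alpha itself, was at 80.8 and 74.3 TPM under sh-NC and 134 and 94.6 TPM under sh-PURB. EIF2S2, the beta subunit, was at 31.0 and 32.7 TPM against 52.0 and 42.4 TPM, and EIF2D, a factor that brings tRNA to the ribosome apart from eIF2, at 1.30 times control. PPP1CA, a catalytic subunit of the phosphatase that reverses the phosphorylation, was at 70.9 and 69.1 TPM under sh-NC and at 49.5 and 47.8 TPM under sh-PURB (limma adjusted p = 0.1003). The first 3 lay above their controls and PPP1CA below, each without overlap. Of the 15 genes 9 lay above and 3 below without overlap, where 18.6% and 29.3% of all tested genes did. PPP1R15A, the stress-induced regulatory subunit GADD34, named after its values were seen, overlapped between the groups at means of 5.05 and 5.04 TPM.

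Of the known regulators of the 4 kinases all 12 were tested, 0 passed with limma, and 1 lay above and 0 below 0 at an unadjusted limma p under 0.05. Without overlap between the groups, 3 lay above and 1 below their controls, where 18.6% and 29.3% of all tested genes did, and the median difference was 0.11. TARBP2, a double-stranded RNA binding protein that inhibits PKR, was at 9.78 and 9.72 TPM under sh-NC and 12.3 and 12.8 TPM under sh-PURB. GCN1, which GCN2 needs for its activation, and PRKRA, an activator of PKR, were at 1.19 and 1.14 times control. ADAR, an RNA editing enzyme that restrains PKR, was at 0.871 of control.

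Downstream of the kinases, 16 transcription factors and readouts of the integrated stress response were tested. Of these 1 passed with limma, ASNS, which rose (limma adjusted p = 0.0464, difference 1.62 with a standard error of 0.13). The call for ASNS held in 6 of 13 alternatives and was lost in the other 7, with a pseudocount of 0.1, with no filter, with no trend and with any 1 of the 4 libraries left out, in each of which limma called 0 of all genes. Its adjusted limma p ran from 0.00209 to 0.277 over the 13, and its difference from 1.497 to 1.80. Of the list 10, ASNS among them, lay above and 1 below 0 at an unadjusted limma p under 0.05. The median difference was 0.70. ATF4, named after its values were seen, was at 164 and 152 TPM under sh-NC and 264 and 217 TPM under sh-PURB, without overlap. PCK2, mitochondrial phosphoenolpyruvate carboxykinase, was at 8.10 and 7.83 TPM against 17.3 and 19.9 TPM, PSAT1 of serine synthesis at 2.81 times control and the pseudokinase TRIB3 at 3.26 times. Without overlap between the groups, 11 of the 16 lay above and 2 below their controls, where 18.6% and 29.3% of all tested genes did. The 2 lower genes were DDIT4, at 0.799 of control, and CEBPB, at 0.847. ATF5, DDIT3 and PPP1R15A overlapped between the groups. These lower and overlapping genes are named after their values were seen. How many of the 16 passed moved with the scaling, from 1 on the deposited values to 2 with median-ratio rescaling, 2 with recomputed TPM and 7 with protein-coding genes only, all higher. Of all genes tested in those 3 rescaled fits 0.590%, 1.03% and 2.93% passed, the last of these with 1.13% higher.

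The mitokine list held receptors and secreted relatives, of which 8 of 16 were tested and 0 passed with limma (at an unadjusted p under 0.05, 1 above and 2 below 0, median difference -0.30). Without overlap between the groups, 1 lay above and 5 below their controls, where 18.6% and 29.3% of all tested genes did. FGF23, a bone-derived hormone of phosphate balance in the same endocrine subfamily as FGF21, was far more abundant and lay the other way. FGF23 was at 534 and 454 TPM under sh-NC and at 79.7 and 164 TPM under sh-PURB (limma adjusted p = 0.0887). There were thus 1086 and 743 FGF23 transcripts per FGF21 transcript by TPM under sh-NC and 20.3 and 50.8 under sh-PURB, a ratio chosen after its values were seen. INHBE, a secreted activin subunit, was at 0.162 and 0.203 TPM under sh-NC and 3.22 and 1.73 TPM under sh-PURB (adjusted p = 0.111 in limma). Like FGF21, INHBE passed the filter on low values only through its sh-PURB libraries. The receptor gene FGFR3, named after its values were seen, passed it only through its controls (1.07 and 1.55 TPM against 0.608 and 0.761 TPM under sh-PURB). GDF11, of the same superfamily as GDF15, stood at 0.743 of control, and the receptor gene FGFR2 at 0.424.

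The co-receptor for FGF21, KLB, did not exceed 0.0314 TPM in any library. GFRAL, the receptor for GDF15, did not exceed 0.0468 TPM and its partner RET did not exceed 0.266 TPM. These 3 genes are named after their values were seen.

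**Figure D4:**
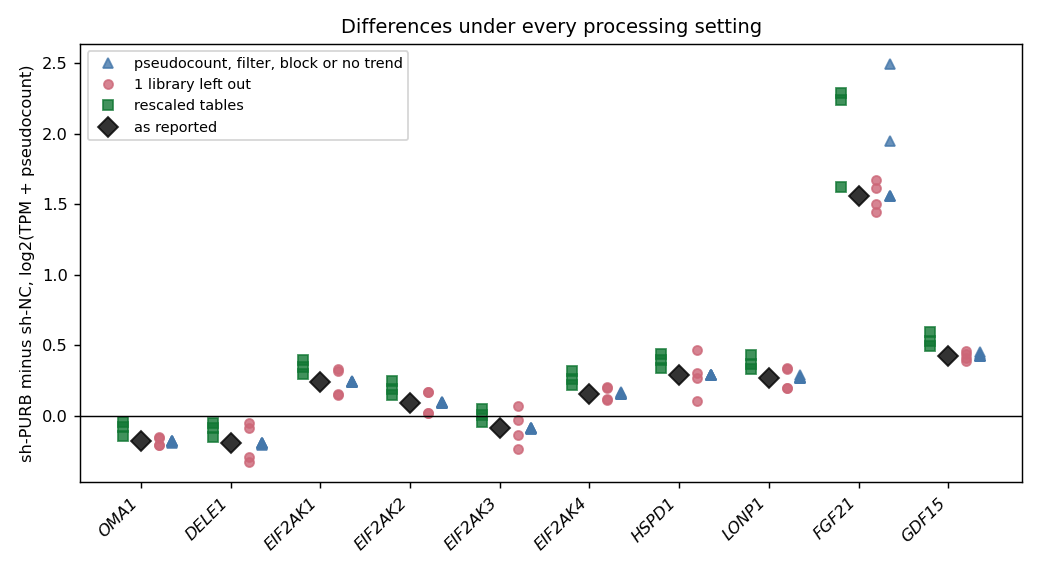
Difference between sh-PURB and sh-NC for each of the 10 genes under every setting, on the log2(TPM + pseudocount) scale, with the reported value as a black diamond, rescaled tables as green squares, fits with 1 library left out as red circles and other alternatives as blue triangles. FGF21 runs from 1.45 to 2.50 and GDF15 from 0.39 to 0.59, and EIF2AK3 is the only member with values on both sides of 0.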

How the data were processed

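The members and gene lists were chosen with earlier results of these data known. The authors deposited TPM per gene symbol, as the file names and the values show, in 1 table of all libraries whose columns equal the 4 tables of single libraries. The submitters' processing notes list, without saying how each was used, the builds GRCh38 and GRCm38 and the tools kallisto 0.44.0, bcl2fastq 2.19, DESeq2 and sleuth. The annotation release, strand setting and summing to genes are not given in the sources used here.

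TPM is a share, so every gene depends on the most abundant RNAs, and it keeps no depth: no counting interval can be given. Columns summed to 977570 to 981061, 13298 to 14207 genes reached 1 TPM, and a row with no gene name (0.921% to 1.66%) was left out. Protein-coding genes held only 25.5% to 27.2% of the TPM of named genes, so the values of the members depend largely on other RNAs. Samples were grouped by title. Genes that reached 1 TPM in 2 or more libraries were fitted as log2(TPM + 1) in limma 3.58.1 (R 4.3.3) with an intensity trend, 2 residual and 2.92 prior degrees of freedom, and Benjamini-Hochberg adjustment. The fit was tested on 20 simulated sets with noise smoothed over genes of like level. Of planted 2-fold changes 71.15% were called and of 4-fold ones 99.8%, and 4.44% of calls were false. The smoothing gave genes of like level nearly the same noise. These rates thus do not cover genes whose noise departs from that of others at their level, and an uncalled gene is not shown to be unchanged. Changes were planted only in genes more abundant than FGF21, EIF2AK3 and PURB, so these rates do not cover genes at such levels. Kinase shares had exact permutation tests.

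Named were all members and PURB, from each list the genes past the threshold and the 4 with the smallest p, and the 3 genes nearest to the member with the largest difference. Positions and gene types came from GENCODE 29, where 36727 symbols matched directly, 2715 through a table of names and 77 not, and promoters from RefSeq. Alternatives were median-ratio rescaling, pseudocounts of 0.1 and 0.5, a filter at TPM 5 or none, TPM recomputed without 42 genes that were mitochondrial or above 1% of a library, protein-coding genes alone, the replicate number as a block, no trend and leaving out each library. Figures were drawn with matplotlib 3.10.9 under Python 3.11.15.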

Additional observations from a re-analysis of the deposited data

How the results depend on the processing

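Over all genes 41 passed with limma (12 higher, 29 lower). The count was 0 with a pseudocount of 0.1, with no filter and with no trend, and 121 with the filter at TPM 5. It was 84 with median-ratio rescaling, 176 with recomputed TPM (99 higher, 77 lower, so 56.3% higher in place of 29.3%) and 407 with protein-coding genes only. Without any 1 library the count was 0 in each case, in fits with 1 residual degree of freedom. Of the 10 members 0 passed in the reported fit, 1 with recomputed TPM and 1 with protein-coding genes only, FGF21 both times, and 0 under the other 11 alternatives. With protein-coding genes only PURB passed too (limma adjusted p = 0.0379, over all alternatives 0.0379 to 0.457). Of 142 values of members and PURB under alternatives, 136 kept their direction and side of the threshold, 3 passed it and 3 changed sign, all 3 of EIF2AK3: 0.0063 with median-ratio rescaling, 0.049 with recomputed TPM and 0.066 without sh-NC replicate 1 (with 1 library left out it ran from -0.24 to 0.066). The cause was not tested. With the replicate number as a block, 118 genes passed and 0 members. Across 14269 genes the deviations of same-numbered libraries from their group means correlated at 0.19, but 2 pairs with no stated origin share only a number. TPM gives no depth, so no counting interval can be given for FGF21 in the controls.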

Other observations

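Genes of mitochondrial turnover and shape were read as a further list beside the relay. Of 16 genes 15 were tested, 0 passed with limma, 0 lay above and 2 below 0 at an unadjusted limma p under 0.05, and the median difference was -0.048 against -0.057 for all tested genes. BNIP3L, a mitophagy receptor that hypoxia induces, was at 51.0 and 52.6 TPM under sh-NC and at 24.2 and 28.96 TPM under sh-PURB (limma adjusted p = 0.0691). Its paralog BNIP3 was at 13.3 and 17.0 TPM under sh-NC and at 9.81 and 8.36 TPM under sh-PURB (adjusted p = 0.177 in limma). FBXL4, part of a ubiquitin ligase that restrains both receptors, stood at 0.664 of control. These 3 genes lay below their controls in both sh-PURB libraries. In the whole list 3 of the 15 tested genes did so and 2 lay above without overlap. Of all tested genes 29.3% lay below and 18.6% above in this way. The fusion gene MFN2 stood at 1.18 times control, without overlap. BNIP3L passed as lower with protein-coding genes only, and 0 of the list passed with recomputed TPM or median-ratio rescaling in limma, as in the deposited values.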
